A study of Homo sapiens with 12 samples.

Results

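A set of 10 genes of heme breakdown and iron handling was followed in HEK293T cells, an established human embryonic kidney line, with or without a hairpin against the RNA-binding protein HuR. The genes were HMOX1, HMOX2, BLVRA, BLVRB, FTL, FTH1, FECH, TFRC, CYBRD1 and IREB2, out of the 23615 genes in the deposited tables. All 10 passed the filter on low counts that left 16005 genes to test. The genes were chosen by symbol, from measured values already known for these libraries: HMOX1 and FTL had stood out with HNE, and CYBRD1 between the lines. Differences with HNE and between the lines are therefore given as descriptions. The adjusted p-values printed for these contrasts say where a gene stood in the fit over all genes and give no independent support.

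The shHuR line expressed a hairpin against HuR, the product of ELAVL1, and the shControl line expressed a control hairpin. Per the labels' protocols both were obtained by lentiviral infection followed by selection in puromycin, with 1 hairpin each, so a difference between the lines is also a difference between 2 selected populations. Each line was left untreated, given 25 µM HNE(alkyne), an alkyne-tagged version of 4-hydroxynonenal, which is a reactive aldehyde from oxidized lipids, or given 225 µM of the oxidant hydrogen peroxide (H2O2). Treated cells were collected after 18 h. Each of the 6 groups held 2 libraries, 12 in all. Total RNA was sequenced after removal of ribosomal RNA, and neither protein nor translation was measured.

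Heme oxygenases open the heme ring, releasing iron, carbon monoxide and biliverdin, and biliverdin reductases turn biliverdin into bilirubin. Released iron is stored in ferritin, a shell of light (FTL) and heavy (FTH1) chains, or is put back into heme by ferrochelatase (FECH). Iron enters most cells on transferrin through the transferrin receptor (TFRC). When iron is scarce, iron regulatory proteins, one of them encoded by IREB2, bind hairpins called iron-responsive elements. In the 5′ UTR of ferritin mRNAs this blocks translation, and in the 3′ UTR of TFRC mRNA it protects the transcript from decay. HMOX1 and the ferritin genes are also known targets of the electrophile-sensing factor NRF2.

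These elements are shown because they set apart the member mRNAs in which such a hairpin was found. They were read from GENCODE release 29 transcripts on GRCh38, 5′ to 3′ on the mRNA strand, with capitals marking the loop CAGTGN. Each was found as this loop on a stem of 5 base pairs, G-U pairs allowed, below which a C bulges out on the 5′ side, with a last loop base other than G.
FTH1 5′ UTR, chr11:61967573-61967602, minus strand: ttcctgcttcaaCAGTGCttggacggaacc
FTL 5′ UTR, chr19:48965335-48965364, plus strand: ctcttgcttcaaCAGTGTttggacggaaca
TFRC 3′ UTR element 1, chr3:196050978-196051007, minus strand: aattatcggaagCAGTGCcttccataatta
TFRC 3′ UTR element 2, chr3:196050574-196050603, minus strand: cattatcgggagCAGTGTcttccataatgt
TFRC 3′ UTR element 3, chr3:196050509-196050538, minus strand: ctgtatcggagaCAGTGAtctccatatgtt
TFRC 3′ UTR element 4, chr3:196050462-196050491, minus strand: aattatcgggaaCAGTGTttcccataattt
Among 13601 tested coding genes, 12 (0.0882%) held the pattern in the 5′ UTR and 67 (0.493%) in the 3′ UTR. No other member held it in a UTR of the transcript searched. Elements that depart from this pattern would be missed, in TFRC as in the other members.

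Total counts ran from 24855946 to 29907256 per library. No pair of replicates agreed within sampling noise (chi-square per degree of freedom 2.93 in shHuR with HNE to 21.5 in shControl with HNE). ELAVL1 was lower in every shHuR library (69.3 to 74.5 CPM, counts scaled to library size with TMM factors) than in every shControl library (86.0 to 99.4 CPM). Of the HEK293 markers NEFL, NEFM, INA, KRT8, KRT18 and VIM were present, while PAX2 was at 0.0365 to 0.124 FPKM (the deposited values, scaled to gene length and library size). The erythroid gene HBB was listed at 0 in all 12 libraries and HBA1 in 9, ALAS2 was at 0.0190 to 0.0932 FPKM, and EPOR was at 1.77 to 2.77 FPKM in every library. PTPRC, CD3E, ALB, COL1A2 and DCN did not exceed 0.105 FPKM in any library. Others of those lists were higher, with CD68 at 0.601 to 1.31 FPKM, COL1A1 at 0.372 to 0.827, APOA1 at 0 to 0.519 and CD14 at 0.0502 to 0.365.

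On the length-scaled FPKM level, FTL was the most abundant member at 216 ± 64.9 (SD over the 12 libraries). FTH1 followed at 85.8 ± 12.0 FPKM and TFRC at 60.5 ± 4.49, and the ranges of these 3 genes did not overlap. BLVRA (38.4 ± 3.28), HMOX2 (32.0 ± 3.29) and IREB2 (31.1 ± 1.53) came next with overlapping ranges. BLVRB was at 24.0 ± 3.38 FPKM, its highest library (28.7) reaching into the range of HMOX2. HMOX1 (11.6 ± 6.31) and FECH (9.24 ± 0.521) overlapped, and CYBRD1 was lowest at 1.43 ± 0.647. Spread over the libraries set other genes apart: the coefficient of variation of CPM was 54.7% for HMOX1, 44.8% for CYBRD1 and 30.04% for FTL, against 4.74% for IREB2 and 5.53% for FECH.

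**Figure D1:**
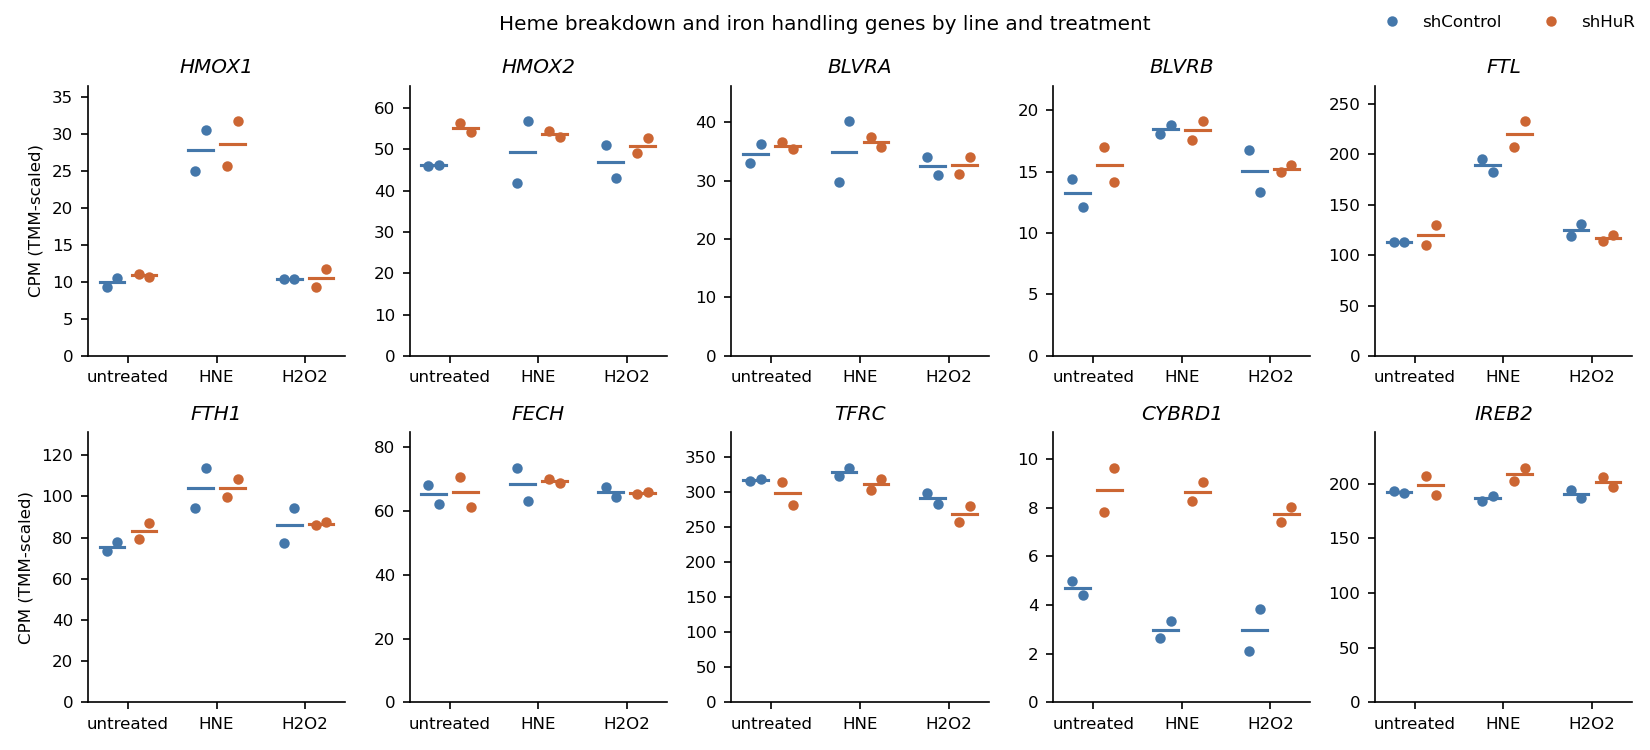
CPM of each member (vertical axes, linear from 0) in untreated, HNE and H2O2 libraries of both lines. Each point is 1 library and each bar the mean of 2. HMOX1 and FTL were high in the 4 HNE libraries, and CYBRD1 was higher in each shHuR library (7.41 to 9.64 CPM) than in any shControl library (2.12 to 5.00 CPM).

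HMOX1, the inducible heme oxygenase, was high in the 4 HNE libraries and in no others. In shControl it was at 9.34 and 10.59 CPM untreated, 25.0 and 30.5 with HNE, and 10.39 and 10.43 with H2O2. In shHuR the values were 11.07 and 10.73 untreated, 25.7 and 31.7 with HNE, and 9.36 and 11.7 with H2O2. Untreated and H2O2 libraries overlapped, and the lowest HNE library stood above all of them. The log2 fold change with HNE was 1.44 (SE 0.0961) over both lines, a fold of 2.71, with 1.48 in shControl and 1.40 in shHuR. In bulk RNA, a change in the share of cells that express a gene and a change in RNA per cell cannot be told apart.

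HMOX2, the constitutive heme oxygenase, showed no such difference. It was at 45.8 and 46.3 CPM in untreated shControl libraries, 41.7 and 56.8 with HNE, and 50.9 and 43.0 with H2O2. In shHuR it was at 56.3 and 54.1 CPM untreated, 54.4 and 53.0 with HNE, and 49.1 and 52.7 with H2O2. Taken over both lines the treatments overlapped, while in shHuR both H2O2 libraries lay below the others. The log2 fold change with HNE was 0.03 (95% interval -0.15 to 0.21). As FPKM, HMOX1 stood at 0.217 to 0.253 of HMOX2 in untreated libraries, 0.525 to 0.667 with HNE and 0.213 to 0.270 with H2O2. HMOX1 remained the less abundant of the pair in every library. HMOX2 overlaps NMRAL1 on the opposite strand in GENCODE, and the strand setting of the counting is not given in the sources used here.

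Of the biliverdin reductases, BLVRB stood higher with HNE and BLVRA did not. BLVRB, which reduces biliverdin IX beta and also flavins, was at 14.4 and 12.1 CPM in untreated shControl libraries and 18.1 and 18.8 with HNE. In shHuR it was at 16.97 and 14.1 CPM untreated and 17.6 and 19.1 with HNE. Every HNE library lay above every untreated and every H2O2 library (13.35 to 16.8 CPM), but the highest untreated library came within 1 CPM of the lowest HNE one. The log2 fold change over both lines was 0.36 (SE 0.0935), which did not pass the threshold over all genes (edgeR adjusted p = 0.153). It was 0.48 in shControl (adjusted p = 0.240) and 0.24 in shHuR (adjusted p = 0.645). BLVRA, which acts on biliverdin IX alpha, the main product of heme oxygenases, had a log2 fold change of 0.02 (interval -0.16 to 0.20). The BLVRB to BLVRA ratio of FPKM was 0.451 to 0.628 untreated, 0.634 to 0.822 with HNE and 0.582 to 0.664 with H2O2, so the HNE and H2O2 ranges overlapped.

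FTL, the ferritin light chain, had the second largest difference with HNE among the members. It was at 113.4 and 113.2 CPM in untreated shControl libraries, 196 and 183 with HNE, and 119 and 131 with H2O2. In shHuR it was at 109.7 and 130.3 CPM untreated, 208 and 233 with HNE, and 114 and 120.2 with H2O2. The HNE libraries were all above the others, which overlapped when taken over both lines. The log2 fold change was 0.81 (SE 0.0659), a fold of 1.75, with 0.74 in shControl and 0.88 in shHuR.

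FTH1, the heavy chain that oxidizes ferrous iron for storage, moved less. It was at 73.3 and 77.9 CPM in untreated shControl libraries, 94.2 and 114 with HNE, and 77.5 and 94.4 with H2O2. In shHuR it was at 79.4 and 87.2 CPM untreated, 99.7 and 108 with HNE, and 85.9 and 87.4 with H2O2. All HNE libraries exceeded all untreated ones, and 1 H2O2 library of shControl (94.4 CPM) exceeded the lowest HNE library. The log2 fold change over both lines was 0.39 (SE 0.0699, edgeR adjusted p = 0.0366). The call was lost on leaving out any 1 of the 4 untreated or the 2 shHuR HNE libraries (adjusted p 0.0805 to 0.200) and in limma (0.162 to 0.197). FTH1 overlaps BEST1 on the opposite strand.

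Both ferritin mRNAs carry the 5′ UTR element printed above, and the 2 chains differed in how far they moved. The FTL to FTH1 ratio of FPKM was 2.12 to 2.38 in untreated libraries, 2.47 to 3.31 with HNE and 2.04 to 2.35 with H2O2. The lowest HNE ratio came from replicate 2 of shControl, and the other HNE libraries were at 3.196 to 3.31. GENCODE lists 25 pseudogenes of FTH1 and 16 of FTL, of which 2 and 1 had rows of their own in the count table, so reads shared with copies make these levels uncertain.

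**Figure D2:**
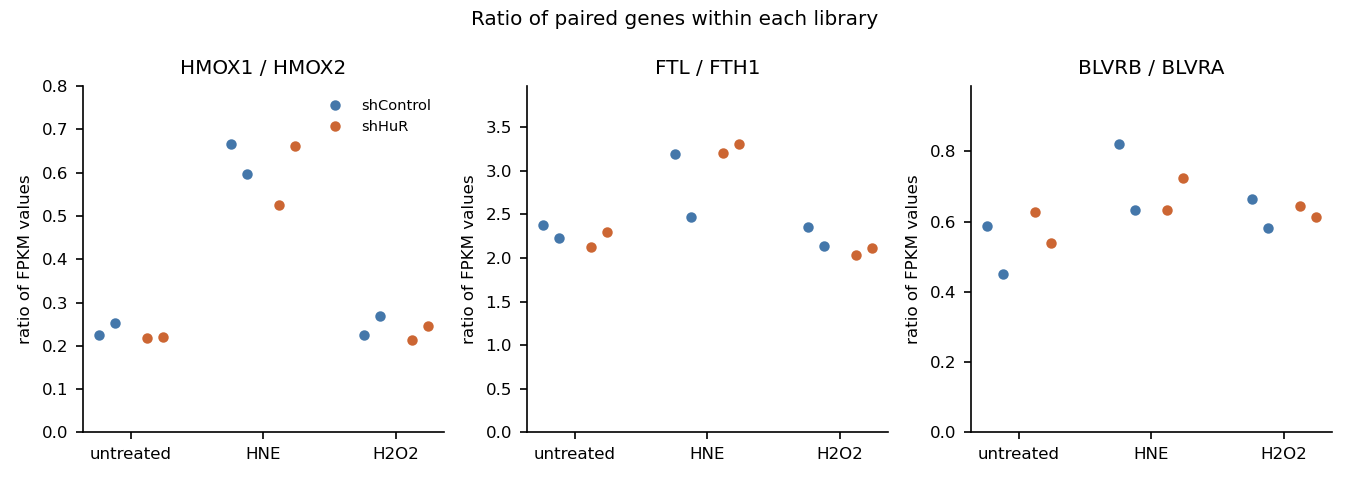
Ratio of FPKM values within each library (vertical axes, linear from 0) for the heme oxygenases, ferritin chains and biliverdin reductases, by treatment. Each point is 1 library. HNE libraries lie above the untreated ones in all 3 panels, with the widest gap for HMOX1 to HMOX2 (0.525 to 0.667 against 0.217 to 0.253).

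FECH, TFRC and IREB2 overlapped between HNE and untreated libraries, and CYBRD1 is described with the lines. FECH was at 61.1 to 70.5 CPM untreated and 63.2 to 73.5 with HNE, with a log2 fold change of 0.07 (interval -0.07 to 0.22). TFRC, whose 3′ UTR holds the 4 elements printed above, was at 281.5 to 318 CPM untreated and 303 to 335 with HNE. Its log2 fold change was 0.06 (interval -0.05 to 0.17). IREB2, an iron regulatory protein degraded when iron is plentiful, was at 189.7 to 207 CPM untreated and 184 to 214 with HNE, and its log2 fold change was 0.01 (interval -0.10 to 0.13). Any change of IREB2 protein would not be seen here.

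In the fit over both lines, HMOX1, FTL and FTH1 were called with HNE, all higher, against 0.247% of all genes (39 of 15780). The median log2 fold change was 0.06 over the 10 members and 0.00022 over all genes. Within shControl, HMOX1 and FTL were called, against 0.0187% of genes, and within shHuR the same 2 genes, against 0.0750%. The groups of 4 HNE and 4 untreated libraries did not overlap for HMOX1, BLVRB, FTL and FTH1, which was so for 4.56% of all genes. Set against the 8 other libraries, the HNE libraries did not overlap for HMOX1, BLVRB and FTL, against 1.76% of genes. Since these contrasts entered the choice of members, nothing is read from the counts.

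With H2O2 none of the 10 members was called by edgeR, in either line or over both. No gene at all was called in these comparisons (0%), while 861 genes had an unadjusted p under 0.05 over both lines (695 in shControl and 540 in shHuR). DESeq2 called 2 to 3 genes, limma 1 to 5 and edgeR with no filter 33 to 117 in these comparisons, no member among them. Fitted to the compared groups alone, edgeR called 8 genes in shHuR and 0 in shControl. Some edgeR fits with 1 library left out called genes too, and no member was called in any of these fits. HMOX1 changed by 0.01 on the log2 scale (interval -0.20 to 0.22) and FTL by 0.05 (interval -0.08 to 0.18). These intervals lie below the HNE estimates of the same genes. FTH1 changed by 0.12 (interval -0.01 to 0.26) and BLVRB by 0.08 (interval -0.14 to 0.30). The lowest unadjusted p-values were those of TFRC and CYBRD1. TFRC was at 299 and 283 CPM with H2O2 in shControl, against 316 and 318 untreated, and at 257 and 280.5 in shHuR, against 315 and 281.5. Its log2 fold change was -0.14 (interval -0.24 to -0.03, edgeR adjusted p = 0.900). Of the 10 members, none had 4 H2O2 libraries clear of the 4 untreated ones, against 1.67% of all genes.

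HNE and H2O2 were each compared with the same untreated libraries, so they were also compared directly. HMOX1 was higher with HNE by 1.43 (SE 0.102) on the log2 scale and FTL by 0.76 (SE 0.0710), and these 2 members were called against 0.114% of genes. FTH1 was higher by 0.27 (adjusted p = 0.130), BLVRB by 0.28 (adjusted p = 0.174) and TFRC by 0.19 (adjusted p = 0.116). The doses differ and each was tested at 1 time, so the agents are compared at those doses alone.

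**Figure D3:**
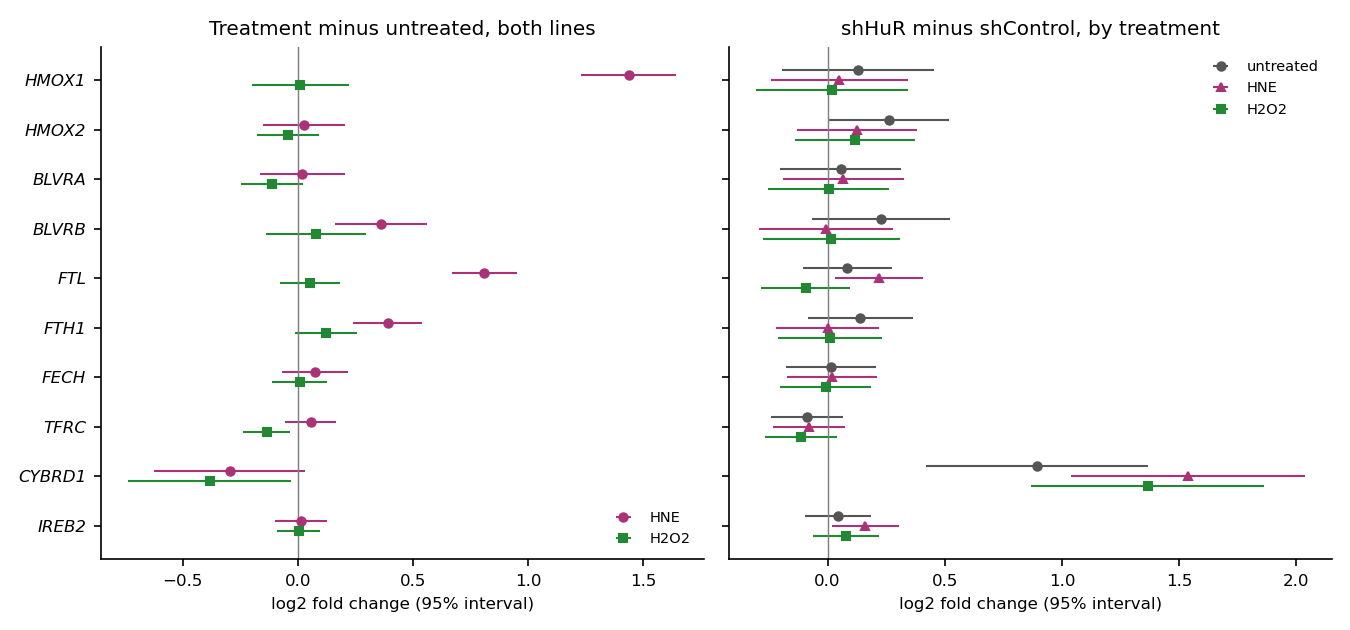
Log2 fold change of each member with its 95% interval (horizontal axes) for each treatment against untreated over both lines, left, and for shHuR against shControl within each treatment, right. The HNE estimates of HMOX1 (1.44) and FTL (0.81) lie clear of those for H2O2, and CYBRD1 is the member whose 3 line intervals all exceed 0.4.

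CYBRD1, a ferric reductase of the plasma membrane that prepares iron for import, was the member that differed between the lines. It was at 5.00 and 4.40 CPM in untreated shControl libraries, 2.64 and 3.35 with HNE, and 2.12 and 3.85 with H2O2. In shHuR it was at 7.82 and 9.64 CPM untreated, 8.25 and 9.04 with HNE, and 7.41 and 8.03 with H2O2. No shControl library reached the lowest shHuR library. Means were 3.56 ± 1.08 CPM in shControl and 8.37 ± 0.826 CPM in shHuR (SD, n = 6), a log2 difference of 1.25 (SE 0.140). The difference was 0.90 in untreated cells, 1.54 with HNE and 1.37 with H2O2. The untreated call was lost without replicate 2 of untreated shHuR (adjusted p = 0.202), or without replicate 1 (0.106) or 2 (0.185) of untreated shControl.

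Within shControl, CYBRD1 was lower with either agent, at an unadjusted p only. An unadjusted p under 0.05 was reached there by 11.7% of all genes with HNE and by 4.34% with H2O2. Its log2 fold change was -0.66 with HNE (SE 0.240, edgeR unadjusted p = 0.0159, adjusted p = 0.322) and -0.65 with H2O2 (SE 0.239, unadjusted p = 0.0169, adjusted p = 0.998). The H2O2 value was -0.29 without replicate 1 of shControl with H2O2 and -1.15 without replicate 2. The untreated shControl libraries (4.40 and 5.00 CPM) lay above the 4 treated ones (2.12 to 3.85 CPM). The share of all genes with such a split was not computed. In shHuR the changes were -0.02 and -0.18, with overlapping groups. The lines' responses did not differ past the threshold, with a difference of 0.64 for HNE (interval -0.04 to 1.33, adjusted p = 0.733) and 0.47 for H2O2 (interval -0.22 to 1.16). Without the same libraries the latter was 0.11 and 0.97. Both agents were compared with the same untreated libraries, so their values are not independent.

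The remaining members differed little between the lines. HMOX2 was at 47.4 ± 5.59 CPM in shControl and 53.3 ± 2.40 CPM in shHuR (SD, n = 6), a log2 difference of 0.17 (edgeR adjusted p = 0.0629). Replicate 2 of shControl with HNE held the highest HMOX2 value (56.8 CPM) and the highest share of small RNA (1.27%), and without it the difference was 0.23 (adjusted p = 0.00278). Whether the small RNA share bears on this was not tested. HMOX2 also passed without replicate 1 of shControl with H2O2. In 10 of the 12 runs with 1 library left out it stayed uncalled, and its difference ran from 0.13 to 0.23. IREB2 was higher in shHuR by 0.09 (adjusted p = 0.0722) and TFRC lower, at -0.09 (adjusted p = 0.0783). IREB2 passed without replicate 2 of untreated shHuR and stayed uncalled in 11 of the 12 runs with 1 library left out (0.08 to 0.12). HMOX1, BLVRA, BLVRB, FTL, FTH1 and FECH differed by 0.01 to 0.08.

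CYBRD1 was the single member called between the lines over all treatments, against 29.9% of all genes. It was also the single call in untreated cells (7.98% of genes), with HNE (8.27%) and with H2O2 (7.19%). Groups of 6 shHuR and 6 shControl libraries did not overlap for CYBRD1 alone, against 12.1% of genes. Over all treatments the median log2 difference was 0.07 over the members and -0.0018 over all genes.

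The difference of the HNE response between the lines was tested for every member. None was called and none had an unadjusted p under 0.05. In edgeR 0% of all genes were called, with 1077 at an unadjusted p under 0.05. DESeq2 called 5 genes, limma 1 to 3 and edgeR with no filter 103. The edgeR result of 0% is that of all 12 libraries. It did not hold without replicate 1 of shControl with HNE, or without either replicate of shHuR with H2O2. The replicates of shControl with HNE agreed least (chi-square per degree of freedom 21.5). For HMOX1 the response in shHuR minus that in shControl was -0.08 (interval -0.51 to 0.36), for FTL 0.13 (interval -0.13 to 0.40) and for FTH1 -0.14 (interval -0.45 to 0.17). With 2 libraries a group, differences within these intervals were not excluded. For H2O2 the edgeR test called 0% of genes as well, with 580 at an unadjusted p under 0.05. There DESeq2 called 3 genes, limma 0 to 3 and edgeR with no filter 36, with no member in any of these counts. The edgeR result of 0% for H2O2 did not hold without replicate 1 of untreated shHuR or replicate 2 of shControl with H2O2.

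HuR binds U-rich and AU-rich stretches, so the 3′ UTRs of the members were searched for ATTTA and TTTTTTT on the transcript strand. CYBRD1 has a 3′ UTR of 3306 bases with 6 ATTTA and 2 TTTTTTT matches. IREB2 (3313 bases) has 7 of each, TFRC (2658 bases) has 12 and 3, and FECH (2429 bases) has 7 and 11. The 3′ UTRs of HMOX1, HMOX2, BLVRA, BLVRB, FTL and FTH1 run from 100 to 616 bases and hold 1 ATTTA, in FTH1, and no TTTTTTT. Among 13601 tested coding genes, 68.9% held ATTTA and 46.9% held TTTTTTT, and the median length was 1084 bases. The NRF2-type motif TGACNNNGC, on either strand, was found in a RefSeq promoter window of 1 of 8 members (FECH). It was in 13.3% of 35116 windows of the same length, a share per window, while members were counted per gene. Sites outside these windows would be missed. HMOX1 and FTH1 had no entry.

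Other genes of heme and iron were taken from 4 lists that were also written with earlier results known. None of them was called with HNE or H2O2 over both lines. Between the lines, 3 of 7 tested heme synthesis genes were called. ALAD, which joins aminolevulinate into porphobilinogen, was higher in shHuR by 0.23 (SE 0.0678), a call lost without replicate 1 of shHuR with H2O2 (adjusted p = 0.0513). CPOX and PPOX, which act late in the pathway, were lower, at -0.18 (SE 0.0517) and -0.32 (SE 0.0754). The list's median was 0.01, against -0.0018 for all genes.

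Among 14 heme transport and binding genes, 3 were higher and 2 lower in shHuR, with a median of 0.0078. FLVCR2, a transporter of the heme exporter family, was higher by 0.52 (SE 0.174), at 1.47 ± 0.154 CPM in shControl and 2.13 ± 0.437 CPM in shHuR. That call was lost on leaving out any shHuR library but replicate 2 with H2O2, either untreated shControl library or replicate 1 of shControl with HNE (adjusted p 0.0524 to 0.0746). SLC25A38, a mitochondrial glycine carrier needed for heme synthesis, was higher by 0.18. The mitochondrial transporters ABCB6 and ABCB10 were lower, at -0.30 and -0.21. Among 16 tested genes of iron transport, storage and sensing, PCBP1, an iron chaperone that loads ferritin, was higher by 0.37 (SE 0.0700). FBXL5, which marks IREB2 protein for degradation, was lower at -0.14 (SE 0.0442), a call lost without replicate 1 of shHuR with H2O2 (adjusted p = 0.0598), replicate 2 of shHuR with HNE (0.0666) or replicate 1 of shControl with H2O2 (0.0577). This list had a median of -0.07.

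Of 24 iron-sulfur cluster assembly genes, 5 were higher and 4 lower, with a median of 0.06. CIAPIN1, of the cytosolic assembly machinery, was higher by 0.32 and BOLA3, a mitochondrial assembly factor, by 0.23. The scaffold gene ISCU was lower at -0.20, a call lost without replicate 1 of shHuR with HNE, replicate 2 of either untreated line or replicate 1 of shControl with H2O2 (adjusted p 0.0549 to 0.0854). The share of called genes in these lists is to be read against 29.9% of all genes.

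**Figure D4:**
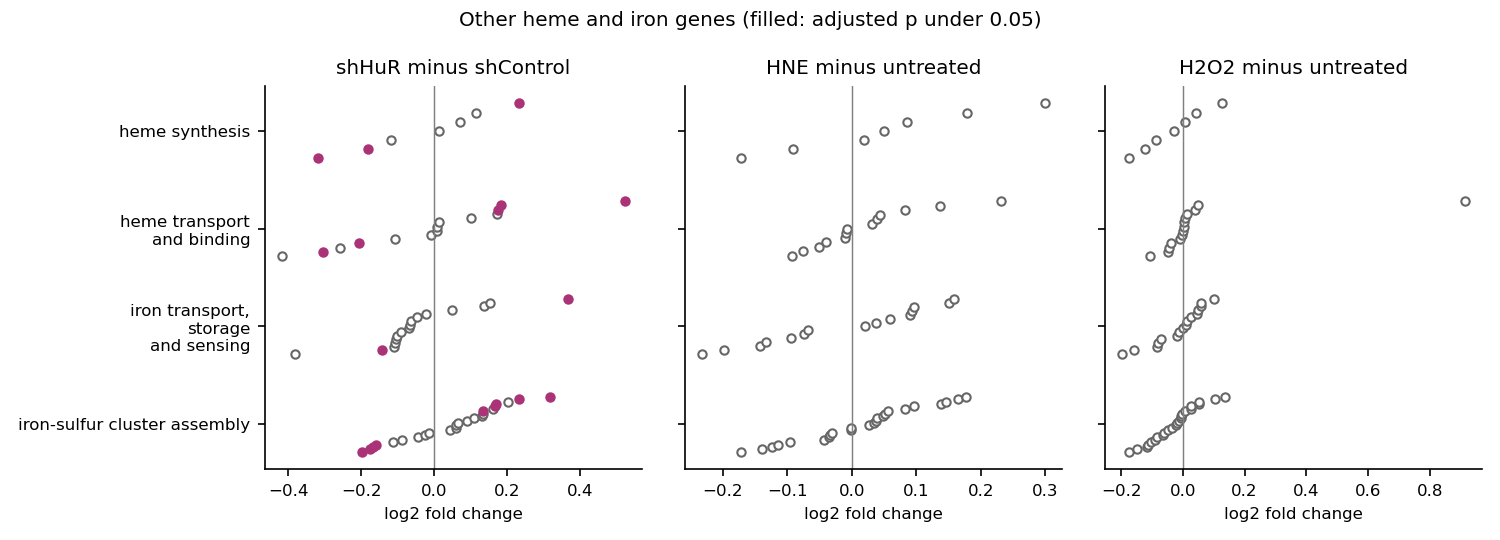
Log2 fold change (horizontal axes) of the tested genes of the 4 heme and iron lists for shHuR against shControl, HNE against untreated and H2O2 against untreated. Filled points passed an adjusted p of 0.05, which happened between the lines alone, and the far point with H2O2 is HPX (0.91, adjusted p = 0.902), a gene under 0.4 CPM named here after its value was seen.

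The genes whose pattern over the 12 libraries was most like that of a member were found by Pearson's r of log2 CPM over 11268 genes with a mean of at least 5 CPM. The r values describe libraries that share treatments and lines, and carry no test. For HMOX1 they were FTL (0.960), TXNRD1 (0.952), RIMS3 (0.941), DFFA (0.934) and SQSTM1 (0.926). For FTL they were HMOX1, TXNRD1 (0.924), EXT1 (0.919), RIMS3 (0.918) and DFFA (0.915). For CYBRD1 they were RASL10B (0.969), PCBP4 (0.967), OSCP1 (0.965), ZNF786 (0.956) and ATXN7L3 (0.956). Spearman's rho, taken on ranks, was 0.608 to 0.902 for the neighbours of HMOX1, 0.566 to 0.860 for FTL and 0.790 to 0.951 for CYBRD1. Among the members, the r of HMOX1 was 0.857 with FTH1 and 0.785 with BLVRB, against 0.240 with HMOX2 and -0.03 with CYBRD1.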

How the data were processed

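Total RNA of 12 HEK293T libraries (2 lines by 3 treatments, 2 biological replicates each per the labels) was analysed from tables deposited by the authors. The deposited estimated counts per gene held 2.25% of values that were not whole, none of them in a member, and were rounded. The deposited FPKM values were scaled by the authors to gene length and library size. Per the submitters' processing notes, cutadapt 1.8, Bowtie2 2.2, TopHat2 2.1, Cufflinks 2.2, Cuffnorm and Cuffdiff and the build GRCh37 (hg19) were used. The annotation and strand setting are not given in the sources used here. Positions and sequences are those of GENCODE release 29 on GRCh38.

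Genes were filtered with filterByExpr (minimum count 10), scaled by TMM (factors 0.965 to 1.03) and tested with edgeR 4.0.16 quasi-likelihood F-tests in R 4.3.3, with Benjamini-Hochberg adjustment over all genes and a threshold of 0.05. Effects averaged over lines used the 8 libraries compared with line as a covariate, the average line effect all 12 libraries with treatment, and all else 6 group means. Standard errors are the log2 fold change over the root of F. Alternatives were DESeq2 1.42.0, limma 3.58.1 on log2(FPKM + 1) and log2(FPKM + 0.1), other scalings and filters, a replicate block, the compared groups alone and each library left out. The labels name no batch.

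Members and lists were chosen with earlier results of these data known. Named were the 10 members, ELAVL1, up to 4 called genes per list with the largest change (higher group at 1 CPM or more), and the 5 closest pattern neighbours of HMOX1, FTL and CYBRD1. Values of some genes that these rules name are not reported here.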

Additional observations from a re-analysis of the deposited data

How the results depend on the processing

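HMOX1, FTL and CYBRD1 kept their direction with HNE over both lines or between the lines in every alternative run, and no scaling moved the median of all genes by more than 0.03. Between the lines over all treatments, DESeq2 called 3 members (HMOX2 and IREB2 besides CYBRD1) among 5015 genes called in all. Library size alone called the same 3 among 4765. No filter on low counts called 2 among 5169, and leaving out 1 library 1 to 2 among 3898 to 5240. The main fit called 1 member among 4787 of 16005 genes. In untreated cells the line call fell to 0 in limma on log2(FPKM + 0.1), with 1058 genes called in all. It was also 0 in limma with no filter, with 726, and rose to 2 with the compared groups alone, with 1681. The main fit called 1277 genes there. With HNE the line count was 1 in every alternative that left out no single library, among 204 to 2061 genes called in all. With a library left out, the CYBRD1 line difference was 0.73 to 1.04 in untreated cells and 1.38 to 1.71 with HNE. For HNE, limma with no filter called 0 members over both lines, in shControl, in shHuR and against H2O2. That fit called 0 to 2 of all genes there. In shControl, no filter on low counts called 4 members among 329 genes called in all, where the main fit called 2 among 3. Limma on log2(FPKM + 1) called 1 member among 3 genes, and on log2(FPKM + 0.1) 1 among 2. For HNE against H2O2, DESeq2 called 4 members among 325 genes and no filter 4 among 668, where the main fit called 2 among 18. Both limma fits on filtered FPKM called 1 member among 3 genes each. The cause of these shifts was not tested.

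Among the estimates followed through these runs, leaving out 1 library changed the sign of 3 near 0. Not every printed estimate was followed, and those of HMOX2, BLVRA, FECH, TFRC and IREB2 for HNE against untreated were not. CYBRD1 with HNE in shHuR ran from -0.16 to 0.15, HMOX1 with H2O2 from -0.0510 to 0.0808, and the HMOX1 difference in HNE response from -0.24 to 0.0682. HMOX1 in shControl lost its HNE call without replicate 1 of untreated shControl (adjusted p = 0.0925), and FTL without that library (0.257) or replicate 2 (0.190). BLVRB with HNE was called with no filter alone (adjusted p = 0.0204). The replicate block gave 3 members for HNE over both lines and 2 in each line and against H2O2. It gave 1 in each line comparison and 0 for H2O2 and the interactions. These counts were the same without it. Over all genes the block called 14 for HNE over both lines, 2 in shControl, 6 in shHuR and 10 against H2O2. Between the lines it called 4652 over all treatments and 987 to 1116 within a treatment. Replicates with 1 number did not deviate together over the tested genes (r -0.092 to 0.117 over 15 pairs, 2 over 0.1). No broad shift shared by number was seen, which cannot show how the libraries were prepared. CYBRD1 rests on 56 to 284 counts per library, the lowest depth among the members.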

Other observations

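ALAS1, the rate-limiting enzyme of heme synthesis outside red cells, was singled out after its values were seen. It was the heme synthesis gene with the largest change with HNE, 0.30 on the log2 scale (SE 0.0595, edgeR unadjusted p = 0.00019, adjusted p = 0.0601). DESeq2 gave an adjusted p of 0.0026 and edgeR with no filter 0.00452. Of the 9 alternatives that left out no single library, 7 left ALAS1 uncalled, as in the main fit. Leaving out 1 library gave 0.27 to 0.33 on the log2 scale with adjusted p from 0.03 to 0.299.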
